A study of Oryctolagus cuniculus with 9 samples.

Results

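Molecular chaperones of the heat shock and endoplasmic reticulum (ER) folding families were examined in rabbit urethral tissue. The members were the gene rows whose symbols belong to the HSPA, HSPB, HSPD, HSPE, HSPH, HSP90, DNAJA, DNAJB, DNAJC or PDIA families, with CALR, CANX, SERPINH1, SDF2L1, HYOU1 and P4HB added by name. Of 28788 rows in the table, 78 carried such a name. A minimum of 10 counts in at least 3 of the 9 libraries kept 70 of them. DNAJB7, DNAJB8, DNAJB13, DNAJC5B, DNAJC5G, HSPB3, HSPB9 and PDIA2 fell below it. The members were sorted by compartment and family into 23 ER chaperones, 11 cytosolic chaperones of the HSP70, HSP90 and HSP110 families, 21 J-domain proteins of the cytosol, nucleus and vesicles, 10 mitochondrial chaperones and 5 small heat shock proteins. The heat-inducible HSP70 genes HSPA1A and HSPA1B had no row under those symbols and were not analysed here.

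The series comes from a study of a hydrogel stent for urethral repair in the rabbit, Oryctolagus cuniculus. Polyadenylated RNA of urethral tissue was sequenced in 9 libraries, 3 each with the codes S9, S7 and S6. The labels give no treatment, time, strain, age or genotype for a code, name no control, and do not say whether libraries came from separate animals. P-values below therefore measure the spread between these libraries, which may be technical. Levels are CPM, the counts of a gene relative to the TMM-scaled library total (edgeR's trimmed mean of M values), and libraries are written as code and number, as in S9_1.

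Cytosolic HSP70 proteins bind exposed hydrophobic stretches of unfolded proteins in an ATP-driven cycle, in which J-domain proteins deliver the client and speed ATP hydrolysis and HSP110 proteins release the nucleotide. HSP90 acts later, on near-folded clients, and small heat shock proteins hold unfolding proteins without using ATP. In the ER, a resident HSP70 (HSPA5, also called BiP), a resident HSP90 (HSP90B1), the lectins calreticulin and calnexin and the disulfide isomerases fold secreted and membrane proteins. Heat shock factors control the cytosolic arm and the unfolded protein response the ER arm. Several small heat shock proteins are abundant in muscle, where they are bound to the contractile apparatus.

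Total counts lay between 35127085 and 36832773 per library, with 19025 to 19417 genes detected. The members together took between 0.854% and 1.06% of the counts of a library. In S9_4, S7_3 and S6_4, 1 library of each code, mitochondrially encoded genes held 0.243% to 0.419% of counts, against 0.910% to 1.52% in the other 6. For the called members, the difference of S9 over S6 is also given within this split, as single values or as ranges. The tissue label was checked against marker genes. Of the urothelial markers, UPK2 lay between 0.787 and 3.65 CPM and UPK3A between 0 and 2.88 CPM, while KRT5, a keratin of basal epithelium, lay between 288 and 1285 CPM. The summed level of 9 urothelial and epithelial markers lay between 1560 and 3682 CPM in S9, 2696 and 4280 CPM in S7, and 2667 and 3300 CPM in S6. Between S9 and S6, edgeR called only KRT18 of them, as higher in S9. Of the 9, 3 had a positive log2 fold change of S9 over S6, with a median of -0.30. DESeq2 and limma-voom each called 2 higher and 2 lower there.

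On the length-scaled FPKM values of the authors, which allow levels of different genes to be set side by side, HSPA8 was the most abundant member, at a mean of 471 FPKM over the 9 libraries. HSPA8 is the constitutive cytosolic HSP70. HSP90AB1, the constitutive HSP90, followed at 427 FPKM, and P4HB, a disulfide isomerase that is also a subunit of collagen prolyl hydroxylase, at 424 FPKM. CALR at 308 FPKM, HSP90AA1 at 279, PDIA3 at 256 and SERPINH1 at 255 came next. SERPINH1 is the collagen-specific chaperone of the ER, and its level varied between 102 and 562 FPKM across libraries. Of the small heat shock proteins, HSPB6 had 60.1 FPKM and the HSPB1 row 23.1 FPKM, but that row holds only part of the reads of HSPB1, so the order of these 2 genes is not known. By class, the summed FPKM of the ER members lay between 1815 and 2700, and that of the mitochondrial members between 187 and 208.

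Between S9 and S6, 10 members were higher and 2 were lower in S9 by edgeR's quasi-likelihood test, with Benjamini-Hochberg adjustment over all 17102 genes tested and a threshold of 0.05. These 12 of 70 members make 17.1%, beside 12.4% of all genes tested, and 24 members had an unadjusted p below 0.05, beside 31.2% of all genes. Higher calls made up 6.02% of all genes and lower calls 6.34%. Small heat shock proteins gave 3 of 5 members higher. Cytosolic HSP70, HSP90 and HSP110 proteins gave 4 of 11 higher, and cytosolic J-domain proteins gave 3 of 21 higher. ER chaperones gave 2 of 23 lower. No mitochondrial member was called among 10 by edgeR, DESeq2, limma-voom or limma-trend, and 1 of them had an unadjusted p below 0.05 in edgeR. Libraries of S9 and S6 did not overlap in 16 members that were higher in S9, beside 18.6% of all genes, and in 13 that were lower, beside 17% of all genes. The median log2 fold change over all 70 members was 0.01, beside -0.01 over all genes.

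**Figure D1:**
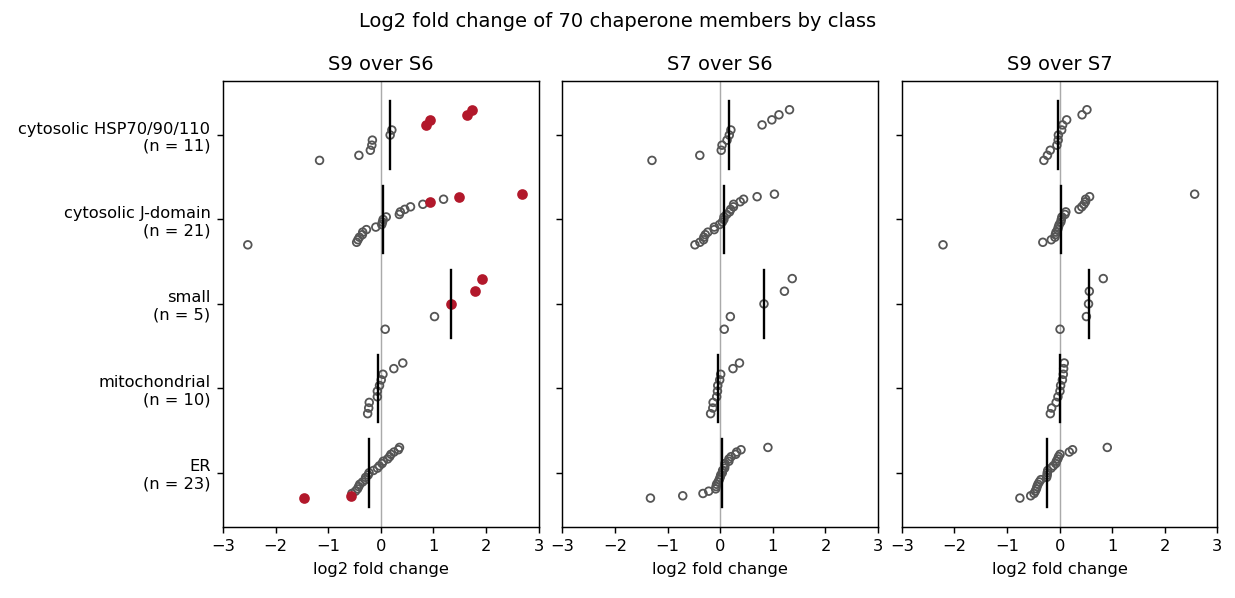
Log2 fold changes of the 70 members by class, one point per member, for S9 over S6, S7 over S6 and S9 over S7. All 5 small heat shock proteins lie to the right of 0 in S9 over S6, with a median of 1.34, and 15 of 23 ER members lie to its left, with a median of -0.22.

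The count of 12 rested on single libraries. It was 0 without S9_1, where 15 members had an unadjusted p below 0.05, and 0 without S9_2, where 20 did. It was 1 without S6_4, 3 without S6_3, 6 without S7_4, 10 without S6_2, 11 without S9_4 and 12 without S7_2 or S7_3. The number of genes called in the whole table moved alike, being 2115 with all libraries, 89 without S6_4, 4 without S9_2 and 0 without S9_1. HSPA12A lost its call without S9_1 or S9_2 and kept it without any other library. HSPA12B and HSPB8 also lost theirs without S6_4, HSPB6 and DNAJA4 without S6_4 or S6_3, and HSPB7 and DNAJC6 without S6_4, S6_3 or S7_4. HSPH1 lost its call without any S6 library and without S9_1 or S9_2. HSPA2 and DNAJC27 lost theirs without any library but S7_2, S7_3 and S9_4, and DNAJC3 and SDF2L1 without any but S7_2, S7_3 and S6_2. DESeq2 called 17 members and limma-voom 14, and both sets held all 12. The members that DESeq2 added were DNAJC12, which was higher in S9, and DNAJC13, DNAJC7, DNAJC22 and HSP90AB1, which were lower.

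The small heat shock proteins had the largest median log2 fold change of the 5 classes in S9 over S6. HSPB6, also called HSP20, a small heat shock protein of muscle, had 111, 158 and 107 CPM in S9, 122, 43.9 and 91.4 CPM in S7, and 45.2, 25.6 and 28.6 CPM in S6. All S9 libraries lay above all S6 libraries, and S7_3 lay within the S6 range while the other S7 libraries lay above it. HSPB6 was 3.78-fold higher in S9 than in S6 (log2 fold change 1.92, SE 0.38, adjusted p = 0.0231 by edgeR, n = 3 each), with 1.72 to 2.21 on the log2 scale when 1 library was left out. HSPB7, a small heat shock protein of heart and other muscle, had 68.2, 86.3 and 55.9 CPM in S9, 75.5, 22.9 and 44.0 CPM in S7, and 26.8, 13.6 and 20.7 CPM in S6. The S9 and S6 libraries did not overlap, and S7_3 again lay within the S6 range. HSPB7 was 3.44-fold higher in S9 than in S6 (log2 fold change 1.78, SE 0.42, adjusted p = 0.0325 by edgeR, range with 1 library left out 1.58 to 2.03).

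HSPB8, which works with the co-chaperone BAG3 in the selective degradation of damaged muscle proteins, had 92.5, 98.3 and 78.5 CPM in S9, 83.0, 49.3 and 57.1 CPM in S7, and 33.8, 44.5 and 28.2 CPM in S6. Every S9 library and every S7 library lay above every S6 library. The S9 level was 2.53-fold the S6 level (log2 fold change 1.34, SE 0.23, adjusted p = 0.0196 by edgeR, range with 1 library left out 1.21 to 1.55). HSPB2, a partner of other small heat shock proteins in muscle, had 10.5, 13.7 and 6.54 CPM in S9, 8.73, 2.16 and 6.40 CPM in S7, and 7.21, 4.48 and 3.46 CPM in S6, and its groups overlapped (log2 fold change of S9 over S6 1.02, adjusted p = 0.217). HSPB1, the widespread HSP27, overlapped between all codes. It had 21.9, 19.0 and 16.2 CPM in S9, 18.9, 17.7 and 20.2 CPM in S7, and 21.6, 15.6 and 16.6 CPM in S6, with a log2 fold change of 0.08 and an SE of 0.19 for S9 over S6. Only 22.3% to 28.1% of reads of HSPB1 and of a second row that RefSeq also names HSPB1 (LOC127488490) lay in the HSPB1 row, and with both rows summed, a step chosen after seeing the data, the log2 fold change was 0.01 (adjusted p = 0.975). The median log2 fold change of the class was 1.34 in S9 over S6, 0.83 in S7 over S6 and 0.55 in S9 over S7. Both S9 over S6 and S7 over S6 rest on the same S6 libraries. Summed over the class, FPKM was 209, 246 and 183 in S9, 201, 87.9 and 151 in S7, and 98.8, 68.3 and 71.7 in S6.

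**Figure D2:**
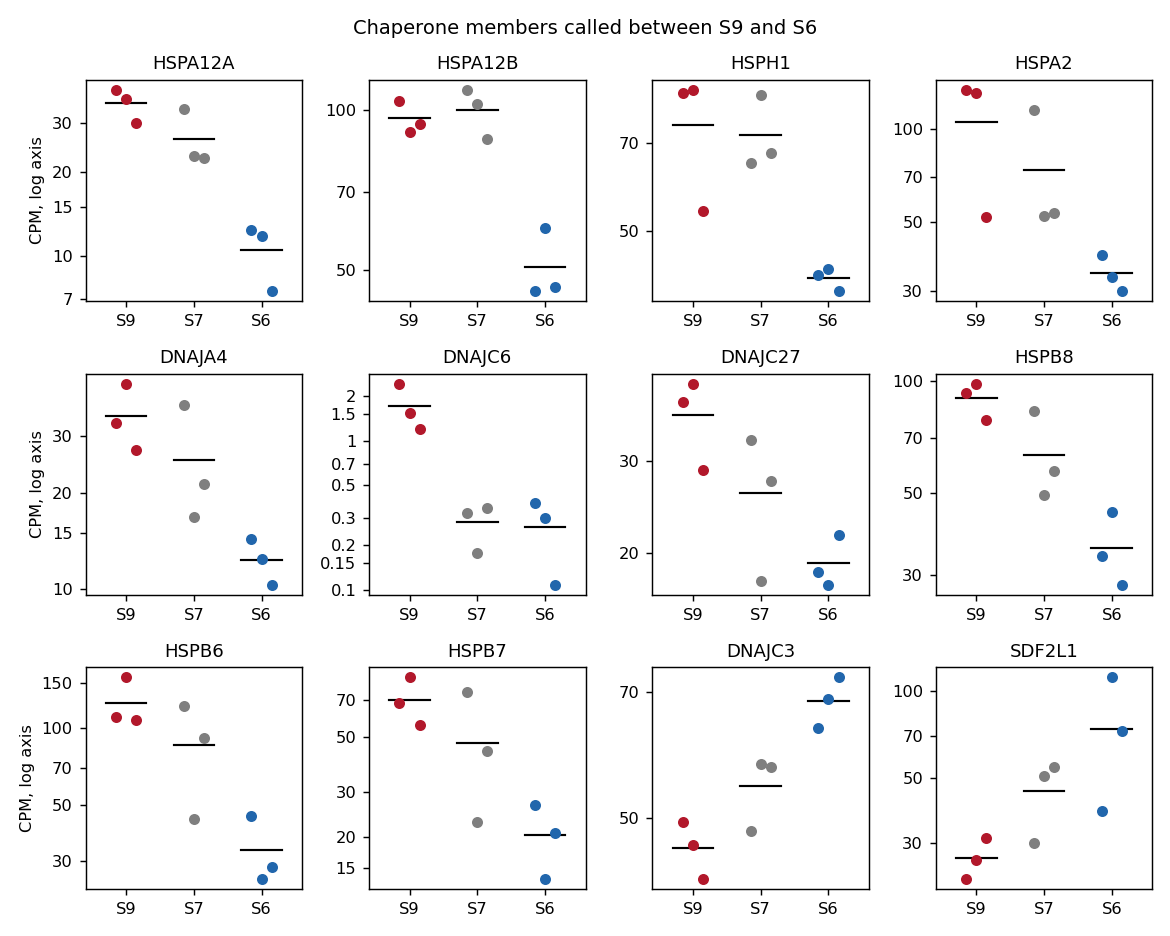
Level of the 12 called members in each library, in CPM on a log axis, with the libraries of S9, S7 and S6 as points from left to right. In the 10 higher members the S9 points lie above all S6 points, and in DNAJC3 and SDF2L1 they lie below them.

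HSPB6, HSPB7 and HSPB8 were called higher in S9 than in S6 together with smooth muscle genes, while HSPB1 and HSPB2 were not called. MYH11, the smooth muscle myosin heavy chain, had 4594, 5609 and 2886 CPM in S9, 4366, 852 and 1887 CPM in S7, and 1357, 595 and 615 CPM in S6, a log2 fold change of 2.35 in S9 over S6 (adjusted p = 0.0398). Of 9 smooth muscle markers 7 were called higher in S9 than in S6, none was at 0, and their summed level lay between 6827 and 12952 CPM in S9, 3488 and 11344 CPM in S7, and 2099 and 3720 CPM in S6. In S7_3, the library lowest for these markers within its code, HSPB6, HSPB7, HSPB8, DNAJA4, HSPA2, DNAJC27 and DNAJC6 were also the lowest of the S7 libraries. For DNAJC6 this rests on 6 counts, against 12 in S7_2 and 13 in S7_4, and HSPA2 was close in S7_3 and S7_4 (52.3 and 53.6 CPM). HSPA12A was likewise close in S7_3 and S7_4 (22.8 and 22.4 CPM), against 33.7 CPM in S7_2. HSPA12B was lowest in S7_4, and HSPH1 was highest in S7_3. S9_4, S7_3 and S6_4, the libraries with the lower mitochondrial share, each had the lowest smooth muscle sum of their code. The part of smooth muscle in these results was not tested. In such bulk tissue, fewer cells of a type and less RNA per cell cannot be told apart. Of 8 skeletal muscle markers only ACTA1 passed the count filter, and its level never exceeded 4.96 CPM.

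**Figure D3:**
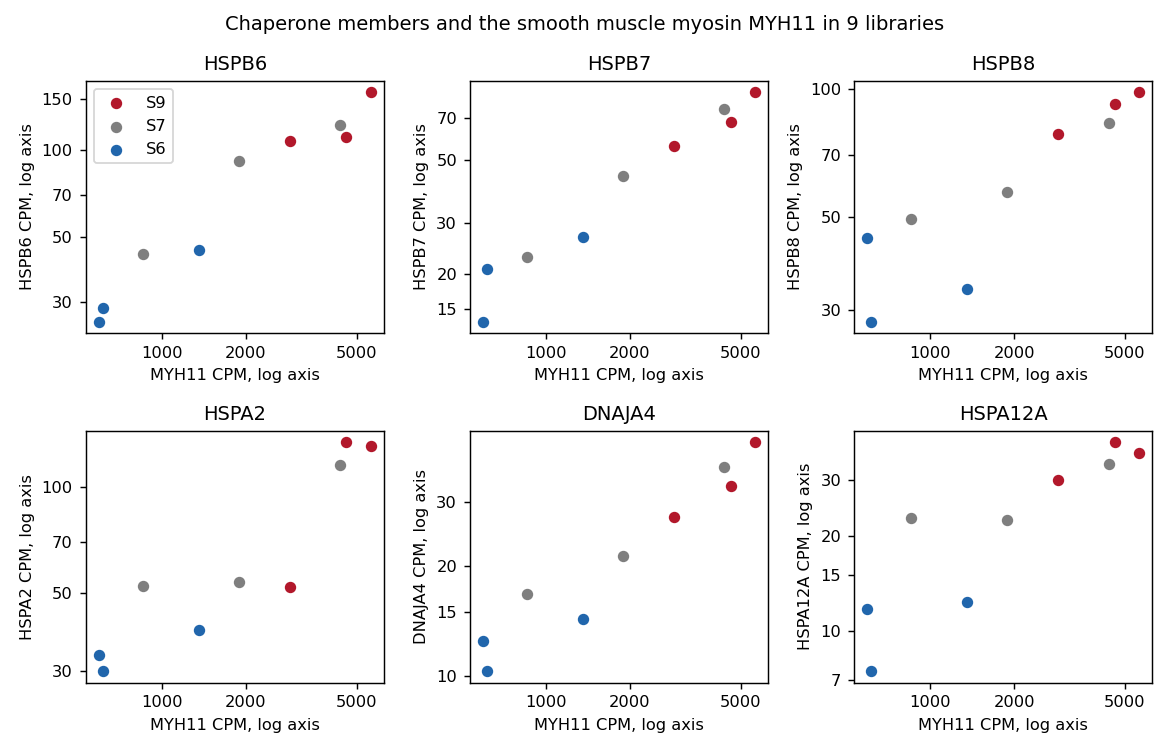
Level of HSPB6, HSPB7, HSPB8, HSPA2, DNAJA4 and HSPA12A in each library against that of MYH11, both in CPM on log axes, with points coloured by code. MYH11 ran from 595 to 5609 CPM, and S7_3 lay within the S6 range for HSPB6 and HSPB7.

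In the cytosolic HSP70 group, HSPA12A and HSPA12B had the smallest adjusted p-values of all members in S9 against S6. Both are distant HSP70 relatives, and HSPA12B is known from endothelial cells. HSPA12A had 39.4, 36.5 and 30.0 CPM in S9, 33.7, 22.8 and 22.4 CPM in S7, and 12.4, 11.8 and 7.48 CPM in S6. HSPA12B had 104, 91.0 and 94.1 CPM in S9, 109, 103 and 88.1 CPM in S7, and 45.6, 60.0 and 46.4 CPM in S6. In both genes the S6 libraries lay below all others. HSPA12A was 3.35-fold higher in S9 than in S6 (log2 fold change 1.74, SE 0.25, adjusted p = 0.0146 by edgeR, range with 1 library left out 1.56 to 1.87), and HSPA12B was 1.90-fold higher (log2 fold change 0.93, SE 0.15, adjusted p = 0.0177 by edgeR, range 0.86 to 1.08). HSPA12A had a log2 fold change of 1.32 in S7 over S6 (adjusted p = 0.0905) and HSPA12B of 0.98 (adjusted p = 0.0695). The log2 fold change of HSPA12B in S9 over S7 was -0.05 (SE 0.15). The summed level of 5 endothelial markers lay between 997 and 2234 CPM in S9, 889 and 2130 CPM in S7, and 1165 and 1405 CPM in S6, with CLDN5 called higher in S9 and the other 4 not called. None of these 5 was at 0, and their part in the HSPA12B result was not tested.

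HSPH1, the cytosolic HSP110 that acts as nucleotide exchange factor for HSP70, had 85.0, 86.0 and 54.0 CPM in S9, 64.8, 84.3 and 67.4 CPM in S7, and 42.1, 43.1 and 39.6 CPM in S6. All S6 libraries lay below every S9 and S7 library. HSPH1 was 1.80-fold higher in S9 than in S6 (log2 fold change 0.85, SE 0.19, adjusted p = 0.0305 by edgeR, range with 1 library left out 0.74 to 1.06). HSPA2, an HSP70 required in male germ cells and also made elsewhere, had 134, 131 and 52.0 CPM in S9, 116, 52.3 and 53.6 CPM in S7, and 39.2, 33.2 and 29.9 CPM in S6. S9_4 stood close to S7_3 and S7_4, and no S6 library reached them. HSPA2 was 3.11-fold higher in S9 than in S6 (log2 fold change 1.63, SE 0.42, adjusted p = 0.0390 by edgeR, range 1.44 to 1.98).

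The abundant cytosolic chaperones did not pass the test. HSPA8 had 942, 1171 and 861 CPM in S9, 1026, 1356 and 1281 CPM in S7, and 946, 1264 and 1141 CPM in S6, with overlapping groups (log2 fold change of S9 over S6 -0.17, SE 0.20). HSP90AA1, the inducible HSP90, had 690, 1010 and 607 CPM in S9, 727, 1011 and 874 CPM in S7, and 667, 936 and 976 CPM in S6, and S9 over S6 gave a log2 fold change of -0.16 (SE 0.25). HSP90AB1 had 987, 1117 and 855 CPM in S9, 978, 1054 and 986 CPM in S7, and 1211, 1493 and 1247 CPM in S6. Its S6 libraries lay above all others, yet the log2 fold change of -0.42 (SE 0.17) in S9 over S6 had an adjusted p of 0.134 and that of -0.39 (SE 0.17) in S7 over S6 an adjusted p of 0.290. The heat-inducible HSPA6 was low throughout, with 66, 25 and 26 counts in S9, 32, 33 and 37 counts in S7, and 68, 132 and 44 counts in S6 (adjusted p = 0.210 for S9 over S6). The span of HSPA6 overlaps that of FCGR2A in RefSeq, and without a known strand setting it is not known whether reads in a shared stretch were kept apart.

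Among the cytosolic J-domain proteins DNAJA4, DNAJC6 and DNAJC27 were called. DNAJA4, a co-chaperone of HSP70, had 33.1, 43.8 and 27.3 CPM in S9, 37.5, 16.8 and 21.4 CPM in S7, and 14.3, 12.4 and 10.3 CPM in S6. Its S6 libraries lay below all others, and it was 2.81-fold higher in S9 than in S6 (log2 fold change 1.49, SE 0.31, adjusted p = 0.0258 by edgeR, range with 1 library left out 1.29 to 1.65). DNAJC27, a small GTPase with a J domain, had 39.0, 42.2 and 28.9 CPM in S9, 33.0, 17.7 and 27.5 CPM in S7, and 18.4, 17.4 and 21.7 CPM in S6. The S9 libraries lay above the S6 libraries and S7_3 lay within the S6 range. DNAJC27 was 1.92-fold higher in S9 than in S6 (log2 fold change 0.94, SE 0.25, adjusted p = 0.0415 by edgeR, range 0.83 to 1.10).

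DNAJC6, or auxilin, which uncoats clathrin vesicles together with HSPA8, was the faintest called member. It had 91, 56 and 45 counts in S9, 12, 6 and 13 counts in S7, and 14, 10 and 4 counts in S6. S9 stood alone here, while the S7 and S6 libraries overlapped. DNAJC6 was 6.44-fold higher in S9 than in S6 (log2 fold change 2.69, SE 0.64, adjusted p = 0.0336 by edgeR, range with 1 library left out 2.33 to 3.05). In S9 over S7 its log2 fold change was 2.57 (SE 0.64), with an adjusted p of 0.538 by edgeR, and DESeq2 called it. On log2(FPKM + 1) the difference of S9 over S6 was 0.27, since the pseudocount outweighs a gene with a mean of 0.110 FPKM.

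The other J-domain members went both ways without being called. DNAJB1, the J-domain partner of HSP70 that heat shock induces, had 95.3, 95.4 and 92.3 CPM in S9, 101, 83.5 and 92.3 CPM in S7, and 87.5, 73.7 and 102 CPM in S6 (log2 fold change of S9 over S6 0.10, SE 0.14). DNAJC21, a ribosome maturation factor, had 21.8, 16.0 and 20.7 CPM in S9, 15, 9.58 and 14.9 CPM in S7, and 15.6, 13.0 and 14.0 CPM in S6 (log2 fold change of S9 over S6 0.46, adjusted p = 0.197, and of S9 over S7 0.57, adjusted p = 0.538). Groups S9 and S6 did not overlap in 7 higher and 6 lower members of 21, which is 61.9%, beside 35.5% of all genes. Among the lower ones DNAJC13, an endosomal protein, had 65.8, 63.1 and 68.0 CPM in S9, 57.9, 65.8 and 67.4 CPM in S7, and 87.3, 83.6 and 79.2 CPM in S6 (adjusted p = 0.0749). DNAJC7, which binds both HSP70 and HSP90, had 72.9, 90.5 and 92.6 CPM in S9, 89.6, 93.9 and 89.1 CPM in S7, and 107, 129 and 104 CPM in S6 (adjusted p = 0.0851). Each of these lay below S6 in S7 as well.

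Of the mitochondrial chaperones none was called in any of the 3 comparisons by edgeR, DESeq2 or limma. HSPA9, the mitochondrial HSP70, had 126, 122 and 151 CPM in S9, 128, 130 and 136 CPM in S7, and 139, 127 and 130 CPM in S6, with a log2 fold change of 0.01 (SE 0.12) in S9 over S6. HSPD1, the chaperonin HSP60, had 97.3, 95.5 and 80.5 CPM in S9, 73.6, 95.5 and 90.4 CPM in S7, and 80.4, 114 and 92.2 CPM in S6. HSPE1, its co-chaperonin, had 88.4, 73.0 and 63.7 CPM in S9, 72.0, 85.8 and 78.1 CPM in S7, and 73.8, 112 and 82.5 CPM in S6. All 3 genes overlapped between codes. DNAJC15, a J protein of the mitochondrial import motor, had 53.6, 41.8 and 40.3 CPM in S9, 45, 42.9 and 43.0 CPM in S7, and 38.1, 30.4 and 33.1 CPM in S6, and no S6 library reached the others (log2 fold change of S9 over S6 0.42, SE 0.15, adjusted p = 0.0990). DNAJC30, a mitochondrial inner membrane protein, had 9.40, 10.3 and 10.5 CPM in S9, 9.41, 11.7 and 13.1 CPM in S7, and 10.7, 13.0 and 11.8 CPM in S6 (adjusted p = 0.458). The median log2 fold change of the class was -0.05 in S9 over S6 and -0.05 in S7 over S6.

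In S9 over S6, 15 of 23 ER chaperones had a negative log2 fold change, against none of the 5 small heat shock proteins. The ER median was -0.22, beside -0.01 over all genes. Groups S9 and S6 did not overlap in 5 ER members, all lower in S9, which is 21.7% of the class, beside 35.5% of all genes. An unadjusted p below 0.05 in edgeR was held by 5, beside 31.2% of all genes. The 2 called make 8.70%, beside 12.4%. None of these shares lies above that of all genes. DNAJC3, a J protein that assists HSPA5 and, as p58IPK, restrains the stress kinase PERK, had 49.5, 46.6 and 42.5 CPM in S9, 48.3, 57.7 and 57.3 CPM in S7, and 63.6, 68.7 and 72.8 CPM in S6. All S6 libraries lay above every other library. DNAJC3 fell in S9 relative to S6 (0.675-fold, log2 fold change -0.57, SE 0.13, adjusted p = 0.0293 by edgeR, range with 1 library left out -0.62 to -0.49). SDF2L1, which works with DNAJB11 to keep ER clients soluble, had 22.6, 26.2 and 31.3 CPM in S9, 30.0, 50.7 and 54.6 CPM in S7, and 38.5, 111 and 72.4 CPM in S6. The S9 libraries lay below all S6 libraries, and S7 overlapped both. SDF2L1 fell in S9 relative to S6 (0.361-fold, log2 fold change -1.47, SE 0.37, adjusted p = 0.0390 by edgeR, range -1.78 to -1.04). Neither was called with a correction for gene length, which left log2 fold changes of -0.36 for DNAJC3 and -1.11 for SDF2L1.

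The disulfide isomerases PDIA3, P4HB and PDIA6 had negative log2 fold changes in S9 over S6 without passing the test. PDIA3, the isomerase that works with calreticulin and calnexin, had 311, 308 and 320 CPM in S9, 329, 505 and 440 CPM in S7, and 373, 469 and 434 CPM in S6. Every S9 library lay below all S7 and S6 libraries (log2 fold change -0.44, SE 0.18, over S6 and over S7, adjusted p = 0.133 and 0.538). P4HB had 467, 580 and 551 CPM in S9, 611, 887 and 742 CPM in S7, and 617, 647 and 846 CPM in S6, again with S9 below both (adjusted p = 0.210 against S6 and 0.538 against S7). PDIA6, which acts with HSPA5, had 252, 314 and 244 CPM in S9, 331, 384 and 364 CPM in S7, and 287, 438 and 408 CPM in S6 (log2 fold change of S9 over S6 -0.48, adjusted p = 0.124).

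**Figure D4:**
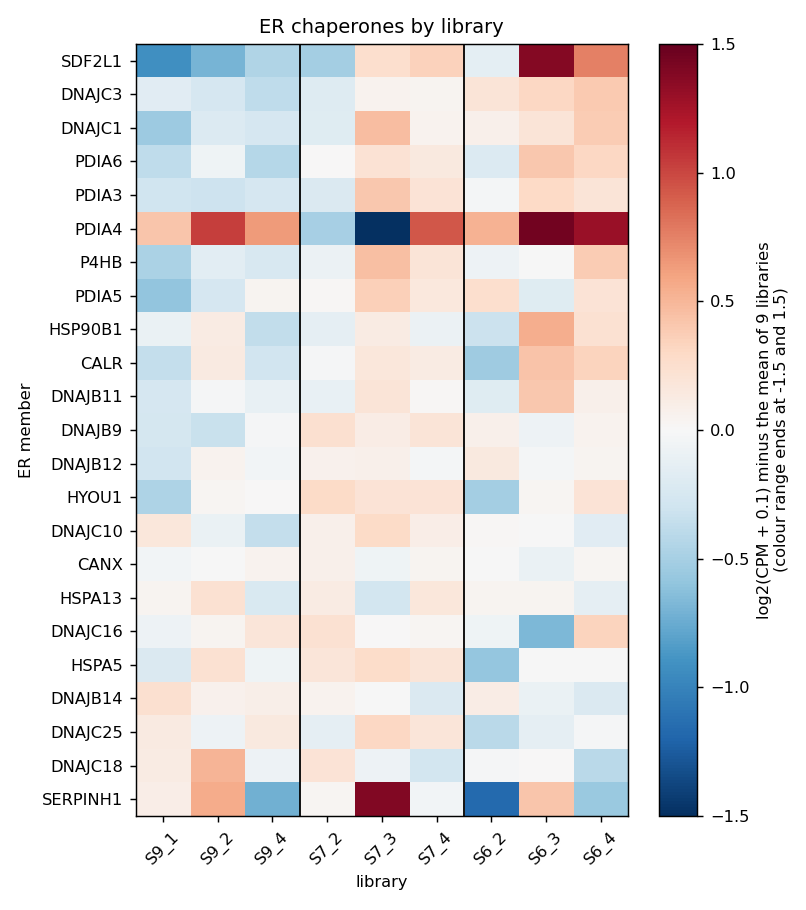
Heat map of the 23 ER members (rows) in the 9 libraries (columns, S9, S7 and S6 from left to right), coloured by log2(CPM + 0.1) minus the member's mean over the 9 libraries, with the colour range ending at -1.5 and 1.5. SDF2L1 and DNAJC3 are lower in the S9 columns than in the S6 columns, and the PDIA4 row is lowest in S7_3, where it had 1.40 CPM.

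The general ER chaperones overlapped between S9 and S6. HSPA5 had 388, 527 and 432 CPM in S9, 513, 547 and 516 CPM in S7, and 302, 448 and 449 CPM in S6 (log2 fold change of S9 over S6 0.17, SE 0.20). HSP90B1 had 477, 554 and 395 CPM in S9, 466, 554 and 481 CPM in S7, and 408, 744 and 598 CPM in S6. CALR had 439, 620 and 463 CPM in S9, 558, 636 and 614 CPM in S7, and 391, 758 and 711 CPM in S6. The spread among the S6 libraries was wider than among the S7 libraries for all 3 genes. CANX, the membrane-bound lectin, had 366, 376 and 390 CPM in S9, 398, 362 and 388 CPM in S7, and 376, 352 and 386 CPM in S6, with a log2 fold change of 0.02 (SE 0.13). DNAJB11, which delivers clients to HSPA5, had 42.3, 50.0 and 46.6 CPM in S9, 46.6, 57.7 and 51.1 CPM in S7, and 44.4, 66.7 and 53.0 CPM in S6. SERPINH1 had 475, 647 and 267 CPM in S9, 450, 1157 and 427 CPM in S7, and 196, 589 and 300 CPM in S6. S7_3 was highest and the groups overlapped (log2 fold change of S7 over S6 0.91, SE 0.53, adjusted p = 0.428). The summed level of 7 fibroblast markers lay between 36643 and 50471 CPM in S9, 43314 and 103626 CPM in S7, and 25881 and 43321 CPM in S6, none was at 0, and S7_3 was again the highest library. Their part in the SERPINH1 levels was not tested.

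PDIA4, a disulfide isomerase of the ER, showed a split between gene rows. Its row held 4213, 6273 and 4916 counts in S9, 2172, 48 and 5876 counts in S7, and 4438, 7532 and 7677 counts in S6. The row LOC100354026, whose gene ID RefSeq assembly mOryCun1.1 also names PDIA4, held 2034, 1622 and 1705 counts in S9, 4882, 8174 and 2065 counts in S7, and 1921, 1515 and 2573 counts in S6. In S7_3 the PDIA4 row was nearly empty and the other row was at its highest. The PDIA4 row held 0.584% of the reads of both rows in S7_3 (95% Wilson interval 0.441% to 0.773%, covering counting error only), 30.8% in S7_2 (29.7% to 31.9%), and 67.4% to 83.3% in the other 7 libraries. The sum of both rows ran from 6247 to 10250 counts. The PDIA4 row alone had a log2 fold change of -1.33 in S7 over S6 (SE 1.06, adjusted p = 0.582), and the sum of both rows, chosen after seeing the data, had -0.15 (SE 0.21, adjusted p = 0.767). In S9 over S6 the sum had -0.37 (SE 0.21, adjusted p = 0.255).

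**Figure D5:**
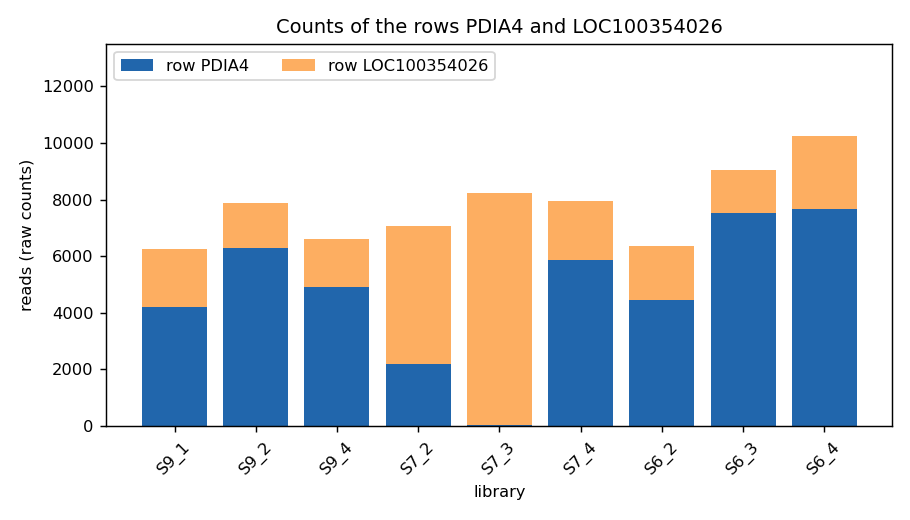
Raw counts of the PDIA4 row (lower part of each bar) and of the row LOC100354026 (upper part) in each library, with S9, S7 and S6 from left to right. In S7_3 the PDIA4 row held 48 counts and the other row 8174.

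Between S7 and S6 no member was called by edgeR, beside 0.111% of all genes (0.0468% higher and 0.0643% lower), and 13 had an unadjusted p below 0.05, beside 17.1% of all genes. DESeq2 called 7 members, which were DNAJC13, lower in S7, and HSPA12A, HSPA12B, HSPH1, HSPB6, HSPB8 and DNAJA4, higher in S7. HSPA12A and HSPA12B were called by limma-voom, and HSPA12B by limma-trend on log2(FPKM + 1). The smallest adjusted p was that of HSPA12B, at 0.0695. Groups did not overlap in 12 higher and 5 lower members, 24.3% of 70, beside 21.2% of all genes (10.7% higher and 10.4% lower). In the HSP70, HSP90 and HSP110 class they did not overlap in 6 of 11. In the ER class 4 lay higher in S7, namely HSPA5, HYOU1, DNAJB9 and DNAJC10, and DNAJC3 lay lower, which is 21.7% of the class. HYOU1, the HSP110 of the ER, had 74.8, 106 and 104 CPM in S9, 126, 119 and 120 CPM in S7, and 72.8, 106 and 119 CPM in S6, so S7 was the highest code. DNAJB9, a J protein induced by the unfolded protein response, had 22.9, 21.8 and 27.2 CPM in S9, 32.7, 29.9 and 31.6 CPM in S7, and 29.1, 26.2 and 28.7 CPM in S6, with the same order. HSPA5 had a log2 fold change of 0.39 in S7 over S6 (SE 0.20, adjusted p = 0.347). The medians of S7 over S6 were 0.17 for the HSP70, HSP90 and HSP110 class, 0.07 for the J-domain class and 0.04 for the ER class.

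Between S9 and S7 no member was called by edgeR, nor any other gene of the table (0%), and 7 members had an unadjusted p below 0.05, beside 9.21% of all genes. DESeq2 called 1 member, DNAJC6, and limma-voom and limma-trend called none. Groups did not overlap in 3 higher and 7 lower members, 14.3% of 70, beside 17.2% of all genes (8.36% higher and 8.81% lower). In the ER class 19 of 23 log2 fold changes were negative, with a median of -0.24, beside 0.00 over all genes. PDIA3, PDIA6, P4HB, DNAJB9, DNAJC1 and HYOU1 lay lower in S9 with no overlap, and DNAJB14 lay higher. The adjusted p of these 6 lower members ran from 0.538 to 0.593. With 3 codes tested together by the F test, HSPA12A and HSPA12B (adjusted p = 0.0343 each) and HSPB8 (adjusted p = 0.0489) were called, 3 of 70 beside 2.43% of all genes, and 15 had an unadjusted p below 0.05, beside 25.1% of all genes. That count ran from 0 to 4 when 1 library was left out, with 0 without S6_4, S7_4, S9_1 or S9_2 and 1 without S6_3.

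Within the split by mitochondrial counts the 12 called members had the same direction on both sides. For each of them every S9 library lay on the same side of every S6 library, so this direction was fixed in advance. In the 6 libraries with the higher mitochondrial share, edgeR called no member and 18 had an unadjusted p below 0.05. There the log2 fold changes of S9 over S6 ran from 1.28 for HSPB8 to 1.94 for HSPB7 among the small heat shock proteins, and from 0.88 for HSPA12B to 1.87 for HSPA2 in the HSP70 and HSP110 families. Among the J-domain proteins they ran from 1.18 for DNAJC27 to 2.52 for DNAJC6, and they were -0.46 for DNAJC3 and -1.62 for SDF2L1. The remaining 3 libraries held 1 per code, so their values have no test. The log2 ratio of S9_4 over S6_4 ran from 1.43 for HSPB7 to 1.90 for HSPB6 among the small heat shock proteins. It was 2.01 for HSPA12A, 1.02 for HSPA12B, 1.41 for DNAJA4 and 3.47 for DNAJC6, and it was -0.78 for DNAJC3 and -1.21 for SDF2L1. For HSPA2 it was 0.80, for HSPH1 0.45 and for DNAJC27 0.42.

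Among genes around the chaperones, 1 of 4 tested heat shock factor genes was higher in S9 than in S6 by edgeR, beside 6.02% of all genes. DESeq2 and limma-voom each called 2 of the 4 higher, and limma-trend on log2(FPKM + 1) called none. HSF1, the master factor of the heat shock response, had 82.2, 76.4 and 63.8 CPM in S9, 77.0, 56.6 and 60.8 CPM in S7, and 49.9, 49.9 and 51.9 CPM in S6, and S9 over S6 gave a log2 fold change of 0.55 (SE 0.15, adjusted p = 0.0487). Of 31 cytosolic co-chaperones and chaperonin subunits 2 were higher and none lower, a share near the 6.02% of all genes. These were BAG2, an inhibitor of the ubiquitin ligase CHIP (log2 fold change 1.75, adjusted p = 0.0213), and CRYAB, a small heat shock protein of muscle and lens (1.91, adjusted p = 0.0322). CRYAB had 56.9, 72.4 and 40.3 CPM in S9, 42.3, 14.6 and 33.3 CPM in S7, and 23.2, 11.4 and 10.5 CPM in S6, and it overlaps HSPB2 in RefSeq.

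On the ER side, 2 of 12 genes of ER-associated degradation were lower in S9 than in S6 and none higher, beside 6.34% of all genes lower and 6.02% higher. EDEM1 (log2 fold change -0.85, adjusted p = 0.0278) and EDEM2 (-0.57, adjusted p = 0.0457) trim mannose from misfolded glycoproteins. Of 26 ER folding cofactors 3 were lower and none higher by edgeR, beside the same shares of all genes, and DESeq2 and limma-voom each called 6 lower and 1 higher. They were ERP29 (-0.76, adjusted p = 0.0253), a disulfide-isomerase relative without isomerase activity, ERP44 (-0.44, adjusted p = 0.0403), which retrieves clients to the ER, and FKBP11 (-1.29, adjusted p = 0.0393), a prolyl isomerase of secretory cells. Of 15 genes of the unfolded protein response 1 was higher and 1 lower by edgeR, near the shares of all genes (6.02% higher and 6.34% lower). CREB3L2, an ER-anchored transcription factor, was higher (0.84, adjusted p = 0.0348), and ASNS, asparagine synthetase, was lower (-1.32, adjusted p = 0.0227). DESeq2 and limma-voom each called 2 higher and 3 lower in this list. The factors XBP1 (-0.19, adjusted p = 0.756), ATF4 (-0.25, adjusted p = 0.287) and DDIT3 (0.30, adjusted p = 0.289) were not called. Of the 88 tested genes of these 5 lists edgeR called none in S7 over S6, where 14 had an unadjusted p below 0.05, beside 17.1% of all genes, and DESeq2 called 3. It called none in S9 over S7, where 7 had an unadjusted p below 0.05, beside 9.21% of all genes, and DESeq2 called 0. Neither count lies above the share of all genes.

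Markers of antibody-secreting and other immune cells were among the genes called lower in S9 than in S6. Their sums were also lower in S7 than in S6 in the B and plasma cell, neutrophil and macrophage lists, while the T cell sums overlapped. In that comparison edgeR called no marker of any of these lists. In the same order, 6 of 8, 5 of 5, 5 of 5 and 2 of 2 had an unadjusted p below 0.05 in edgeR. DESeq2 called 6, 4, 4 and 1 lower. Of 8 B and plasma cell markers 4 were lower in S9 than in S6 (CD79A, CD79B, MZB1 and TNFRSF17), and their summed level lay between 1355 and 1972 CPM in S9, 846 and 2107 CPM in S7, and 2398 and 3823 CPM in S6. MZB1, a chaperone cofactor of plasma cells, had 15.6, 19.0 and 11.5 CPM in S9, 6.0, 12.4 and 27.2 CPM in S7, and 61.3, 100 and 106 CPM in S6. DERL3 and XBP1 stand in this list and in the ER lists. All 5 tested neutrophil markers were lower in S9, with sums of 435 to 758 CPM in S9, 2912 to 6520 CPM in S7, and 8306 to 15738 CPM in S6. Of 5 tested macrophage markers 4 were lower, with sums of 116 to 203 CPM in S9, 174 to 278 CPM in S7 and 355 to 1058 CPM in S6, and both tested T cell markers were lower. No tested immune marker was called higher, and the part of these cells in the ER results was not tested.

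In the RefSeq gene table of mOryCun1.1, 38 of the 70 members' spans overlap another gene's. HSPA12B overlaps SIGLEC1, HSPB6 overlaps LIN37, HSPB7 overlaps SRARP and HSPA12A overlaps ENO4. Whole gene spans were compared, not exons, so how much of the counted sequence is shared is not known. The strand setting of the counting is not given in the sources used here. Whether reads in a shared stretch were kept apart is therefore not known.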

How the data were processed

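Polyadenylated RNA of rabbit urethral tissue was made into libraries with a template-switching kit after column purification, per the labels' protocols. The authors deposited whole read counts per gene, not normalized, for 9 libraries. The tools fastp, HISAT2 and HTSeq are named in the submitters' processing notes without versions, and for the genome build, the annotation and the strand setting nothing is stated. FPKM values deposited by the authors equalled the count divided by the library total and by a whole gene length in 172953 of 172961 values above 0 (relative tolerance 1e-06), so they hold the same reads.

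All columns were mapped to samples by name. No pair of libraries held identical values. Genes were kept by filterByExpr (minimum count 10, minimum total 15), leaving 17102. After TMM scaling, the 3 codes were fitted in 1 model with 6 residual degrees of freedom (edgeR 4.0.16 with robust quasi-likelihood dispersions, limma 3.58.1, R 4.3.3), with Benjamini-Hochberg adjustment in each test at 0.05. Adjusted p-values are from this edgeR fit unless another tool is named. The biological coefficient of variation was 41.9%. The standard error is the log2 fold change divided by the square root of F. The steps were checked on simulated counts with known changes. Alternatives were DESeq2 size factors, upper-quartile scaling, other filters, the DESeq2 test (1.42.0), limma-voom with weighted samples, log2(FPKM + 1) and log2(FPKM + 0.1) by limma-trend, a replicate block, the 6 libraries with the higher mitochondrial share, a gene length correction (spline with 5 degrees of freedom) and each library left out.

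Members named with values in every library were those called in any test, the largest log2 fold change of each class in each comparison (at least 5 CPM in the higher code), and 25 of 27 anchor genes that the table holds. DNAJC1, DNAJC7, DNAJC10, DNAJC12, DNAJC13, DNAJC22, DNAJB14 and HSPA6 were named after their values were seen. The members, the classes, 5 pathway lists and the marker lists were chosen with earlier results of these data known. Gene names of LOC rows come from the RefSeq table of mOryCun1.1. Overlaps between genes were found from the start and end of whole gene spans in that table. No sequences are shown.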

Additional observations from a re-analysis of the deposited data

How the results depend on the processing

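The 12 members called between S9 and S6 kept their direction in all 20 alternatives, which share libraries with the test that named them. Their number was 12 with all libraries, 9 to 17 with other scalings, filters, tools or a length correction, 0 with a replicate block, 0 in the 6 libraries with the higher mitochondrial share, and 0 to 12 with 1 library left out. Without S9_1 or S9_2 none was called. Between S7 and S6 the number of 0 became 7 with DESeq2, 2 with limma-voom and 1 with limma-trend at either pseudocount, and between S9 and S7 it became 1 with DESeq2. For the test of 3 codes the number of 3 became 14 with DESeq2, 11 with limma-voom, 0 with the replicate block, 0 in the 6 libraries and 0 to 4 with 1 library left out. Over all genes, S9 against S6 gave 2115 calls in edgeR, 4112 in DESeq2, 4061 in limma-voom, 16 with the replicate block and 7 in the 6 libraries. S7 against S6 gave 19 calls in edgeR, 1417 in DESeq2 and 306 in limma-voom, and S9 against S7 gave 0 in edgeR and 123 in DESeq2. The cause of these differences was not tested.

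Samples with the same replicate number did not deviate together throughout. Correlations of their deviations from the code means ran from -0.0649 to 0.138 over 7 pairs (median 0.0640). Over 20 pairs with other numbers they ran from -0.178 to 0.103 (median -0.0327). The highest were those of the same-numbered pairs S6_2 and S7_2 (0.138), S6_3 and S7_3 (0.132), and S6_4 and S9_4 (0.127). All were small and not every same-numbered pair was positive, so the numbers were not taken to pair the libraries. Whether they do is not known. No called result changed its sign, which was largely set by the lack of overlap between S9 and S6 libraries in the called members. Of the class medians in S9 over S6, the J-domain median ran from -0.05 to 0.24 and the mitochondrial from -0.15 to 0.06, so neither has a fixed direction. The ER median ran from -0.24 to -0.06, nearest 0 with the replicate block, and in S9 over S7 from -0.28 to -0.07. The small heat shock median ran from 1.21 to 1.57. Depth limits HSPA6, DNAJC6 and DNAJC22, with at most 132 counts in a library.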
